A study of Mus musculus with 4 samples.

Results

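Cxcl1, Cxcl2, Cxcl3 and Cxcl5 encode mouse chemokines that draw neutrophils through the receptor CXCR2. Their signals were followed through 4 conditions in bone-marrow-derived macrophages of female BalbC mice. The 4 genes were chosen by name among the 19938 genes that the array annotation names with a single symbol, and each had 1 probe set. These genes and the lists used below were chosen with earlier results of these data known. The shares of all genes set beside their counts are therefore descriptions and no test of the lists. CXCR2 ligands are small secreted proteins that form gradients along which neutrophils move out of the blood. Macrophages that sense LPS, a bacterial cell wall component recognised by the receptor TLR4, are a known source of Cxcl1 (also called KC) and Cxcl2 (MIP-2), whose genes respond to NF-kB and whose mRNAs are short-lived. Cxcl5 (LIX) is known as a product of epithelial cells, among others.

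The conditions were LPS with zVAD and Nec-1, LPS with zVAD, LPS alone, and an untreated control. LPS was given at 10 ng/ml, zVAD, which blocks caspases, at 50 µM, and Nec-1, which blocks the kinase activity of RIPK1, at 30 µM. All cells had been differentiated for 7 days with medium conditioned by L929 cells. Each condition had 1 Affymetrix array, so no spread between replicates could be measured, no test was made, and every ratio below compares single arrays with a size threshold of 2-fold. The labels state neither treatment times nor whether animals were pooled. No array holds zVAD or Nec-1 alone, and none holds LPS with Nec-1 but without zVAD. A signal of log2 6.47, the median of all values, served as the filter level, under which a signal was not separated from background. Of the 4 genes, 3 passed it on at least 1 array, and Cxcl5 lay under it on all arrays.

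Cxcl1 and Cxcl2 had their highest signal with LPS/zVAD, whereas Cxcl3 had its highest with LPS alone. Cxcl1 was at log2 10.74 with LPS/zVAD/Nec-1, 13.18 with LPS/zVAD, 10.00 with LPS and 8.38 in control. The LPS/zVAD array thus stood apart for Cxcl1, 2.44 above the next array, while the arrays with LPS/zVAD/Nec-1 and LPS lay 0.74 from each other. Cxcl2 was at log2 13.22 with LPS/zVAD/Nec-1, 14.01 with LPS/zVAD, 12.48 with LPS and 10.01 in control. Its order over the arrays was that of Cxcl1, but the 3 arrays with LPS were closer together, and the LPS/zVAD signal lay 0.62 below the highest signal on that array; compression of ratios near the top of the range was not tested. Cxcl3 was at log2 8.76 with LPS/zVAD/Nec-1, 9.40 with LPS/zVAD, 10.42 with LPS and 6.06 in control, the last under the filter level. Among the arrays with LPS, Cxcl3 was therefore highest where no inhibitor was present and lowest where both were. Cxcl5 was at log2 5.29 with LPS/zVAD/Nec-1, 5.29 with LPS/zVAD, 5.44 with LPS and 5.17 in control, a range of 0.27 in which no order can be read. In these bulk samples, fewer expressing cells and less RNA per cell cannot be told apart. The coding sequences of Cxcl1, Cxcl2 and Cxcl3 are related, and whether their probe sets share signal was not tested.

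**Figure D1:**
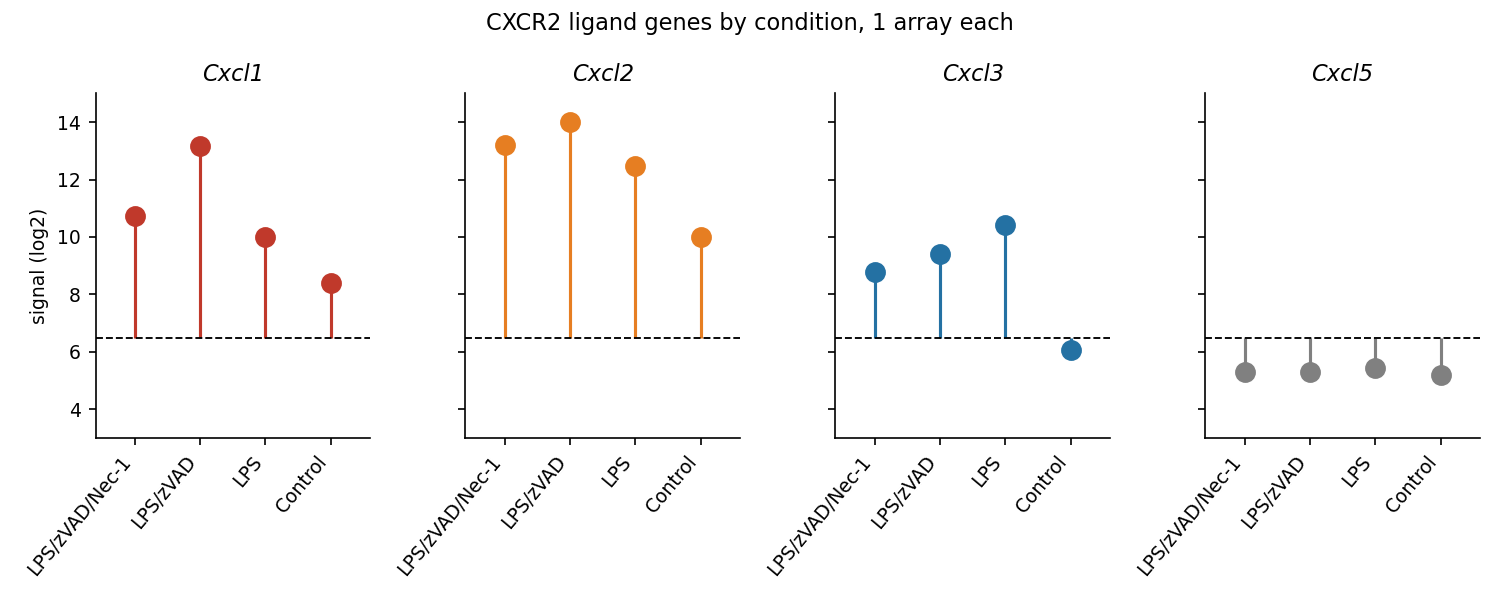
Signal (log2, vertical axis) of each gene in the 4 conditions, 1 point for each array, with the filter level of 6.47 as a dashed line. Cxcl1 and Cxcl2 peak with LPS/zVAD at 13.18 and 14.01, Cxcl3 peaks with LPS at 10.42, and all 4 points of Cxcl5 lie under the line.

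The sequences before the annotated starts of Cxcl1, Cxcl2 and Cxcl3 are shown because the genes hold the same NF-kB motif there and differ in their values with the inhibitors. The RefSeq promoter table of GRCm38.p6 held 3 of the 4 genes. Each stretch runs 5′ to 3′ from 250 bases before the start to 50 bases after it, on the + strand, at chr5:90890995-90891294 for Cxcl1, chr5:90903649-90903948 for Cxcl2 and chr5:90785851-90786150 for Cxcl3. The capitals nearer to the 5′ end mark the match to a strict NF-kB motif (GGGA, any base, then TTTCC), and those nearer to the 3′ end mark a TATA-like stretch.
Cxcl1: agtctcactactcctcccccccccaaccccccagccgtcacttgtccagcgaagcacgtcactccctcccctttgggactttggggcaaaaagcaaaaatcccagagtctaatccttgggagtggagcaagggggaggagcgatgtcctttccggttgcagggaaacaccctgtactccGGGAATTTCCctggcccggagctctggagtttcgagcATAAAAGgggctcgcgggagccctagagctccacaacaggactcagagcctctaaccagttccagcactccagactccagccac
Cxcl2: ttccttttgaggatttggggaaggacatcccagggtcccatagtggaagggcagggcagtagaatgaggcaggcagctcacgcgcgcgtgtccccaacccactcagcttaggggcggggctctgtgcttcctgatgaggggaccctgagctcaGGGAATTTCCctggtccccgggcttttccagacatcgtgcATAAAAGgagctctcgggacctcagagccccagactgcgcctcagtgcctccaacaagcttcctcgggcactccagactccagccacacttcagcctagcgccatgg
Cxcl3: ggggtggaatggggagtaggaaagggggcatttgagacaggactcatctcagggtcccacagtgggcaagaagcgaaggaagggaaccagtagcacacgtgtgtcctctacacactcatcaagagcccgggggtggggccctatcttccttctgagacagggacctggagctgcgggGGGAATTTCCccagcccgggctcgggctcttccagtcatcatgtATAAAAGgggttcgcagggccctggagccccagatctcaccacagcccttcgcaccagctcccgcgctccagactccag

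Motifs were searched as letters on both strands. The strict NF-kB motif was found once in each of the 3 promoters, in the same form, GGGAATTTCC, and in 0.411% of the 32851 promoters of the table. It ended 62 bases before the start of Cxcl1, 88 before that of Cxcl2 and 64 before that of Cxcl3. A looser form (GGGA, any 4 bases, then CC), which contains it, was found in 20.7% of all promoters and, beyond the overlapping stretch, once more in Cxcl1, from 90 to 81 bases before the start. The TATA box TATAAA was found in Cxcl3 alone among the 3 and in 13.6% of all promoters. The stretch ATAAAAG, added to the search after the sequences had been read, was found in all 3 and in 5.42% of all promoters. In Cxcl3 it overlaps the TATA box. ATAAAAG ended 28 bases before the start of Cxcl1, 51 before that of Cxcl2 and 23 before that of Cxcl3. Both marked stretches thus lay farthest from the annotated start in Cxcl2. The AP-1 motif TGANTCA, the C/EBP motif TTGCNNAA and the EGR motif GCGNGGGCG were not in these windows of the 3 genes, against 7.81%, 10.8% and 5.55% of all promoters. In global alignments the promoters of Cxcl3 and Cxcl2 were 57.9% identical, those of Cxcl1 and Cxcl2 54.3%, and those of Cxcl3 and Cxcl1 53.9%. Pairs with at least 1 of the nearby genes Ppbp, Pf4 and Cxcl15 lay between 42.0% (Pf4 and Cxcl3) and 50.3% (Ppbp and Cxcl1). A match is a description of the letters and says nothing of binding.

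**Figure D2:**
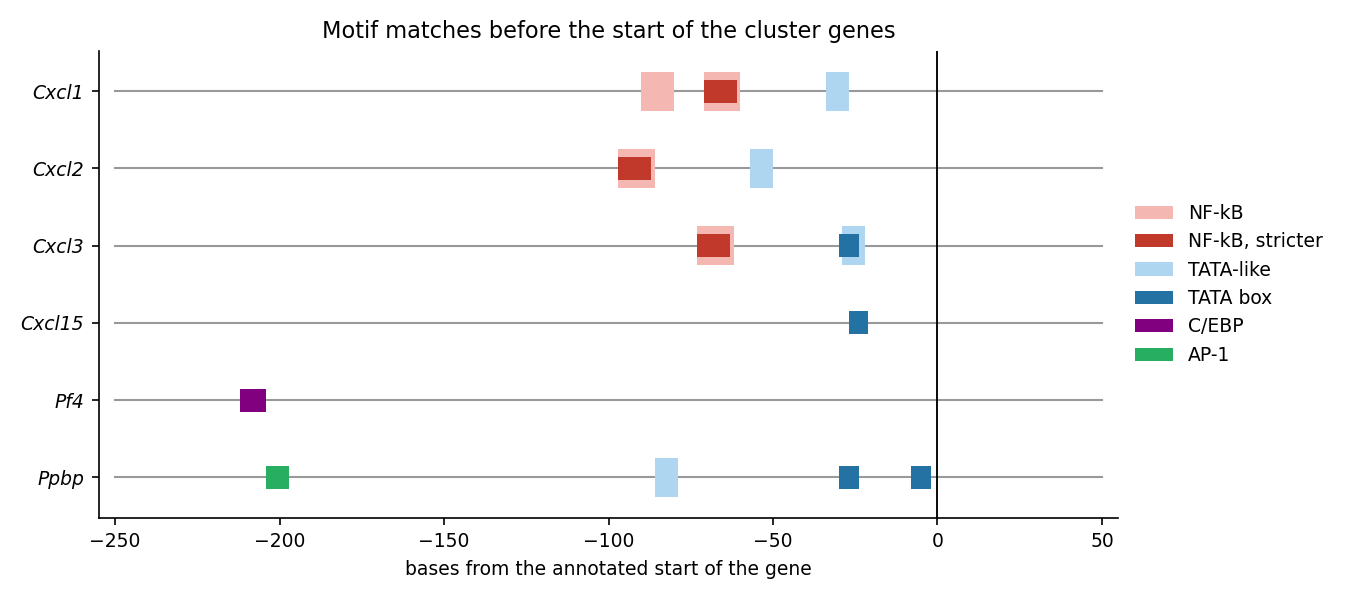
Motif matches on either strand (coloured boxes) by distance in bases from the annotated start (horizontal axis, 0 at the start) for 6 genes of the chemokine cluster. The stricter NF-kB match lies before Cxcl1, Cxcl2 and Cxcl3 and in none of the windows of Cxcl15, Pf4 and Ppbp.

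With LPS alone, set against control, Cxcl3 had the largest ratio of the 4 and Cxcl1 the smallest of the 3 that passed the filter. Cxcl3 was at least 15.5-fold higher, counted from the filter level because its control signal lay under it (log2 ratio 4.36 as deposited, rank 71 from the top of 12203 genes). Cxcl2 was 5.54-fold higher (2.47, rank 252) and Cxcl1 3.08-fold higher (1.62, rank 528). The call of 3 of 4 genes as higher stands beside 8.24% of all genes past the filter in this comparison, where 0 of the 4 genes and 7.2% of all genes were lower. The median over the 4 genes was 2.05, and 2.47 over the 3 past the filter, against -0.12 over all genes past the filter. The order of response, Cxcl3 over Cxcl2 over Cxcl1, held also with Cxcl3 counted from the filter level, at 3.95.

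With LPS/zVAD, set against LPS alone, the genes had ratios of opposite sign. Cxcl1 was 9.04-fold higher (log2 ratio 3.18), at rank 22 from the top of 12203 genes. Cxcl2 was 2.88-fold higher (1.53, rank 157). Cxcl3 was 2.03-fold lower (-1.02, rank 397 from the bottom), just past the threshold. The ratio of Cxcl1 thus exceeded that of Cxcl3 by 4.20 on the log2 scale, although both genes had been higher with LPS than in control. Higher by 2-fold or more were 2 of the 4 genes, against 3.25% of all genes, and 1 of 4 was lower, against 3.59%. The median over the 4 genes was 0.69, and 1.53 over the 3 past the filter, against -0.05 over all genes past the filter. The lower call of Cxcl3 was lost after quantile normalization (-0.91) and after cyclic loess (-0.91), with its direction kept, so its size relative to the threshold depends on the scaling of the arrays.

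With Nec-1 added to LPS/zVAD, Cxcl1 was 5.42-fold lower than with LPS/zVAD (log2 ratio -2.44, rank 28 from the bottom of 12203 genes). Cxcl2 was 1.74-fold lower (-0.80, rank 634) and Cxcl3 1.56-fold lower (-0.64, rank 868), both under the threshold. The single call among the 4 genes stands beside 3.32% of all genes lower by 2-fold or more in this comparison, where 0 of the 4 genes and 1.14% of all genes were higher. The median over the 4 genes was -0.72, and -0.80 over the 3 past the filter, against 0.07 over all genes past the filter. The sign of the ratio was the same for Cxcl1, Cxcl2 and Cxcl3 here, while in the comparison of LPS/zVAD with LPS it was not; for Cxcl3 the array with Nec-1 lay farther from LPS than the array without it. Both comparisons share the LPS/zVAD array, so an error on that array would enter both.

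The array with both inhibitors, set directly against LPS alone, gave the contrast within the family that does not rest on the LPS/zVAD array. The arrays compared differ by both inhibitors, so the part of each cannot be told apart here. Over all genes these arrays were the closest pair of the series (Pearson r over probes 0.992), with 0.0738% of genes higher and 0.541% lower by 2-fold or more. Cxcl3 was 3.16-fold lower with LPS/zVAD/Nec-1 (log2 ratio -1.66), at rank 14 from the bottom of 12203 genes. Cxcl1 was 1.67-fold and Cxcl2 1.66-fold higher, at ratios of 0.74 and 0.73, which did not reach 2-fold but lay at ranks 33 and 37 from the top, above the 99th percentile of all genes at 0.55. The difference between Cxcl1 and Cxcl3 was 2.40 on the log2 scale, and that between Cxcl1 and Cxcl2 was 0.01. Of the 4 genes, 1 was called lower and 0 higher, and their median was 0.29, and 0.73 over the 3 past the filter, against -0.02 over all genes past the filter. Under the other scalings Cxcl3 lay between -1.74 and -1.54, Cxcl1 between 0.66 and 0.81 and Cxcl2 between 0.66 and 0.83.

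**Figure D3:**
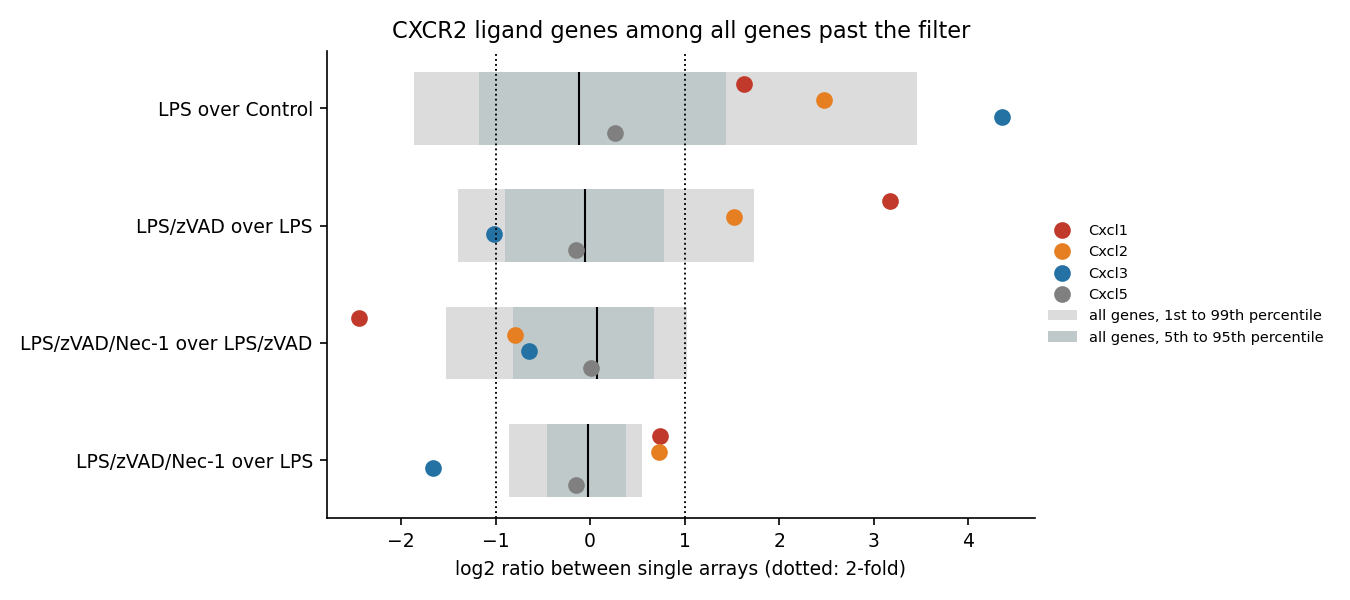
Log2 ratio (horizontal axis) of the 4 genes in 4 comparisons, over bars that span the central range of the 12203 genes past the filter, with their median as a line. Cxcl1 at 3.18 and Cxcl3 at -1.02 stand on opposite sides for LPS/zVAD over LPS, and at 0.74 and -1.66 for LPS/zVAD/Nec-1 over LPS. Cxcl5 is drawn although it did not pass the filter.

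Set against control, Cxcl1, Cxcl2 and Cxcl3 were higher by more than 2-fold on every array with LPS. With LPS/zVAD/Nec-1 they were 5.14-fold, 9.20-fold and at least 4.89-fold higher, beside 6.85% of all genes higher and 7.68% lower. With LPS/zVAD they were 27.9-fold, 16.0-fold and at least 7.63-fold higher, beside 8.79% of all genes higher and 10.7% lower. Because the values of Cxcl3 are lower bounds, its place in the order of the ratios to control cannot be read for these conditions. The comparisons share the control array.

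The 4 genes lie in 1 cluster on chromosome 5 with further CXC chemokine genes, in the order Cxcl5, Ppbp, Pf4, Cxcl3, Cxcl15, Cxcl1 and Cxcl2 in the RefSeq gene table. Ppbp, the precursor of CXCL7, which also acts on CXCR2, was at log2 8.03 with LPS/zVAD/Nec-1, 8.17 with LPS/zVAD, 9.83 with LPS and 8.0 in control. Its LPS array alone stood high, and both arrays with inhibitors lay within 0.17 of control. Ppbp was 3.16-fold lower with LPS/zVAD than with LPS (log2 ratio -1.66) and 3.48-fold lower with LPS/zVAD/Nec-1 than with LPS (-1.80, rank 11 from the bottom), so it shared the direction of Cxcl3 in both comparisons. Pf4, platelet factor 4, a CXC chemokine outside the CXCR2 ligands, was at log2 12.03 with LPS/zVAD/Nec-1, 12.22 with LPS/zVAD, 12.70 with LPS and 12.29 in control, and passed 2-fold in no comparison. Cxcl15, known from lung epithelium, lay under the filter level on all arrays. Thus Cxcl1 and Cxcl2, neighbours at one end of the cluster, were higher with LPS/zVAD than with LPS, and Ppbp and Cxcl3, separated by Pf4, were lower. Beyond the cluster, Mthfd2l, a folate enzyme gene next to Cxcl2, lay between log2 8.66 and 8.87 on all arrays. The flanking genes Afp, Afm, Albfm1, Rassf6, Epgn and Ereg lay under the filter level on all arrays, and Areg was not analysed here.

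**Figure D4:**
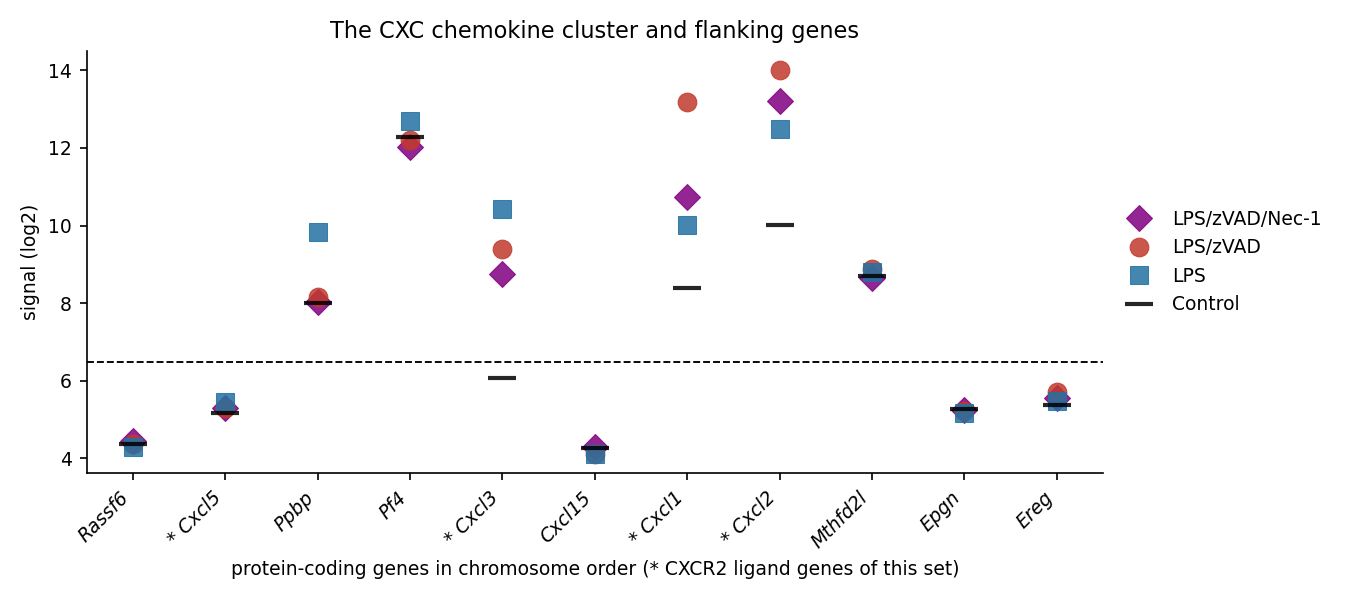
Signal (log2, vertical axis) of the measured protein-coding genes of the cluster and its nearest flanks, in chromosome order from left to right, with a marker for each condition and the filter level of 6.47 as a dashed line. The LPS/zVAD marker is the highest for Cxcl1 and Cxcl2, and the LPS marker is the highest for Ppbp, Pf4 and Cxcl3.

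The receptors of the axis lay under the filter level in these cells. Cxcr2, the receptor that gives the ligands their name, lay at log2 4.59 with LPS/zVAD/Nec-1, 4.90 with LPS/zVAD, 4.93 with LPS and 4.87 in control, under the filter level throughout, as did Cxcr1, a related chemokine receptor, and Ackr1, a scavenging receptor of chemokines. Of the 12 listed genes of the axis, 11 were measured and 7 passed the filter. With LPS, set against control, the median ratio was -0.17 over the 11 and -0.28 over the 7. Of the 7, 1 was higher (Ppbp), beside 8.24% of all genes, and 1 lower, beside 7.2%. The lower gene was Arrb1, a beta-arrestin that uncouples and internalises chemokine receptors (log2 ratio -2.42). Arrb2, the other beta-arrestin, was at log2 11.26 with LPS/zVAD/Nec-1, 10.05 with LPS/zVAD, 11.33 with LPS and 11.76 in control. It was lower with LPS/zVAD than with LPS (-1.28) and higher with LPS/zVAD/Nec-1 than with LPS/zVAD (1.21), opposite in sign to Cxcl1 in both. Arrb1 had the sign of Cxcl1 in both, at 0.28 and -0.74, under 2-fold. Of the 7 genes, 0 were higher and 2 lower in the first of these comparisons, beside 3.25% and 3.59% of all genes. In the second, 1 was higher and 0 lower, beside 1.14% and 3.32%.

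Of 8 other listed CXC chemokines, 5 passed 2-fold in the comparison of LPS with control, and none did between the arrays with LPS. All 8 were measured and 6 passed the filter, while Cxcl12 and Cxcl13 lay under it on all arrays. With LPS, set against control, the median over the 8 was 1.58, 4 were higher, beside 8.24% of all genes, and 1 was lower, beside 7.2%. The higher genes were the interferon-induced ligands of CXCR3, Cxcl10 and Cxcl11 at log2 ratios of 7.08 and 6.92 and Cxcl9 at least 21.2-fold higher, with its control signal under the filter level, and Cxcl16 (2.41). Cxcl14 was lower (-1.42), and Cxcl17 had a ratio of -0.31. In LPS/zVAD against LPS, 0 were higher and 0 lower (median -0.17), beside 3.25% and 3.59% of all genes. Cxcl10 had a ratio of 0.17 there and Cxcl11 of -0.32. In LPS/zVAD/Nec-1 against LPS/zVAD the counts were again 0 and 0 (median 0.19), beside 1.14% and 3.32%. In LPS/zVAD/Nec-1 against LPS they were also 0 and 0 (median 0.08), beside 0.0738% and 0.541%. At such shares, few or no calls would be met among any 6 genes, so these counts do not set the list apart. The signals of Cxcl10, between log2 13.86 and 14.03 on the arrays with LPS, lie near the top of the range.

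Cytokines that act on neutrophils or on their production differed among themselves in the same comparisons. Of 12 listed genes, 12 were measured and 10 passed the filter, and 4 were higher with LPS/zVAD than with LPS while 0 were lower (median 0.20), beside 3.25% and 3.59% of all genes. Counted from the filter level, 3 were higher, without Csf2. Lif and Csf2 passed the filter through the LPS/zVAD array alone, so in this comparison they could not have been lower. Lif, a cytokine of the interleukin 6 family, was at least 13.1-fold higher. Csf2, the gene of GM-CSF, was at least 1.82-fold higher, a bound under the threshold, while its log2 ratio as deposited was 2.07. Ccl4, a CC chemokine, was at log2 13.16 with LPS/zVAD/Nec-1, 13.77 with LPS/zVAD, 12.50 with LPS and 9.87 in control, an order equal to that of Cxcl2. Tnf had a ratio of 1.13. Csf3, the gene of G-CSF, which drives neutrophil production, was at log2 7.46 with LPS/zVAD/Nec-1, 7.57 with LPS/zVAD, 7.35 with LPS and 6.64 in control, and passed 2-fold in no comparison. Il1a, Il1b and Il6 differed between the arrays with LPS by at most 0.32 on the log2 scale. Their signals there lay between log2 12.76 (Il6) and 13.96 (Il1a), and the highest signals of these arrays between 14.56 and 14.63. Compression of their ratios was not tested.

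Upstream genes were read for the same comparisons. Of 11 listed NF-kB subunits and inhibitors, 10 were measured, 9 of them were higher with LPS than in control, beside 8.24% of all genes, and their median log2 ratio was 2.41. In LPS/zVAD against LPS, 0 were higher and 1 lower, beside 3.25% and 3.59% of all genes, with a median of 0.10, and the lower gene was Bcl3, a nuclear inhibitor protein of the IkB family, at -1.12. Nfkbiz, a nuclear cofactor of NF-kB, was at log2 11.18 with LPS/zVAD/Nec-1, 11.58 with LPS/zVAD, 10.98 with LPS and 7.57 in control. Of 18 listed receptors, adaptors and kinases, 16 were measured, with a median of -0.16 in LPS/zVAD against LPS, where 2 were higher and 0 lower, beside the same 3.25% and 3.59%: Ticam1, the TLR adaptor TRIF, at 1.33, and Map3k8, a kinase that activates ERK, at 1.07. Ripk1 was not analysed here, and Ripk3, Mlkl and Casp8 had ratios of 0.29, -0.13 and -0.19 in that comparison.

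Several transcription factor genes of the immediate early class had ratios of the same sign as Cxcl1. Of 16 listed AP-1, EGR and C/EBP genes, all measured, 4 were higher with LPS/zVAD than with LPS and 0 lower, beside 3.25% and 3.59% of all genes, with a median of 0.33: Maff at 3.46, Egr1 at 2.86, Egr2 at 2.17 and Jun at 1.36. With LPS/zVAD/Nec-1, set against LPS/zVAD, 4 were lower and 0 higher (median -0.43), beside 3.32% and 1.14% of all genes, with Maff at -3.09, Egr1 at -1.79, Egr2 at -1.58 and Jun at -1.18. None of these 4 was higher by 2-fold with LPS than in control, unlike Cxcl1. In the direct comparison of LPS/zVAD/Nec-1 with LPS, Fosl2, an AP-1 subunit, was lower, at -1.40, and Egr1 higher, at 1.07.

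Because chemokine mRNAs are short-lived, genes of mRNA decay were listed too. Of 13 genes, all measured, 5 were higher and 2 lower on the LPS array than on the control array, beside 8.24% and 7.2% of all genes. Zfp36, the gene of tristetraprolin, which speeds the decay of such mRNAs, was at log2 12.29 with LPS/zVAD/Nec-1, 12.75 with LPS/zVAD, 12.20 with LPS and 9.52 in control, and did not differ by 2-fold among the arrays with LPS. In LPS/zVAD against LPS, 3 were higher and 0 lower (median 0.47), beside 3.25% and 3.59% of all genes: Zfp36l2, a relative of tristetraprolin, at 2.44, Arid5a, which stabilises cytokine mRNAs, at 1.16, and Rc3h1, the gene of roquin-1, which was 2.83-fold higher. With LPS/zVAD/Nec-1, set against LPS/zVAD, Zfp36l2 and Rc3h1 were lower, at -1.89 and -1.07, beside 3.32% of all genes, 0 were higher, beside 1.14%, and the median was -0.46.

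Genes whose pattern over the 4 arrays was most like that of each chemokine were found by the Euclidean distance between 3 log2 ratios (LPS over control, LPS/zVAD over LPS, and LPS/zVAD/Nec-1 over LPS/zVAD). Nearest to Cxcl1 were Ppp1r15a, a stress-induced phosphatase subunit (distance 0.38), Htr2a, a serotonin receptor (0.46), Slc39a2, a zinc transporter (0.67), Osm, oncostatin M (0.73), and Otud1, a deubiquitinase (0.83). Ppp1r15a was at log2 9.32 with LPS/zVAD/Nec-1, 11.90 with LPS/zVAD, 8.65 with LPS and 7.38 in control. Nearest to Cxcl2 were Tmem171 (0.16), Tiparp, a mono-ADP-ribosyltransferase (0.30), Ccl4 (0.36), the transcription factor gene Irf1 (0.44) and Sectm1a (0.46). As deposited, the nearest to Cxcl3 were Il2ra, the alpha chain of the interleukin 2 receptor (0.50), Ifi208 (0.67), Il1f9, an interleukin 1 family cytokine (0.80), Serpinb2, an inhibitor of plasminogen activators (0.90), and the chemokine receptor gene Ccr7 (0.93). The control signals of Cxcl3 and of 4 of these 5 genes, all but Ccr7, lay under the filter level, so their ratios of LPS to control, and with them the distances, rest on values not separated from background. With such signals raised to the filter level, a setting added after the data had been seen, 2 of the 5 genes remained among the 5 nearest to Cxcl3: Il2ra (0.49) and Ccr7 (0.80), beside Timp1 (0.72), Lcn2 (0.94) and Slc28a2 (1.00). The same setting kept 5 of 5 for Cxcl1 and 4 of 5 for Cxcl2, where Arid5a took the place of Sectm1a. The distance rests on 4 arrays and describes likeness of values alone.

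The labelled cell type was checked against markers. All 8 macrophage markers passed the filter, with a mean log2 signal of 12.77 with LPS/zVAD/Nec-1, 12.66 with LPS/zVAD, 12.88 with LPS and 12.44 in control. Of 15 neutrophil markers 13 passed it, and Cxcr2 and Retnlg were under it throughout. The mean over all 15 was 8.40 with LPS/zVAD/Nec-1, 8.35 with LPS/zVAD, 8.85 with LPS and 8.0 in control. In LPS against control 5 neutrophil markers were higher (Lcn2, Csf3r, Mmp9, S100a9 and Ly6g), beside 8.24% of all genes. In LPS/zVAD against LPS 3 were lower (Mmp9 at -1.49, Lcn2 at -1.04 and Mmp8 at -1.03), beside 3.59% of all genes. The median over the 15 was -0.41, against -0.05 over all genes past the filter. In LPS/zVAD/Nec-1 against LPS 2 were lower (Mmp9 at -1.39 and Mmp8 at -1.15), beside 0.541%, with a median of -0.39 against -0.02. These ratios and medians had the sign of the ratios of Cxcl3 and Ppbp, and their part in those results was not tested. Of 12 fibroblast and endothelial markers, 9 passed the filter. The mean over all 12 was 7.02 with LPS/zVAD/Nec-1, 6.74 with LPS/zVAD, 7.10 with LPS and 6.51 in control. In LPS against control 4 of them were higher (Kdr, Dcn, Pecam1 and Cdh5), beside 8.24% of all genes, or 3 counted from the filter level, without Cdh5. The median over the 12 was nevertheless -0.18 in that comparison, with ratios of -0.40 for Col1a1, -0.35 for Col1a2 and -0.30 for Col3a1. In LPS/zVAD against LPS 2 were lower, Dcn at -1.86 and Pecam1 at -1.14, beside 3.59% of all genes, and 0 were higher, with a median of -0.07 over the 12 and ratios of 0.31, 0.32 and 0.29 for the collagen genes Col1a1, Col1a2 and Col3a1. Of the B cell markers 1 of 4 measured passed the filter, of the T and NK cell markers 2 of 6, and of the mast cell and basophil markers 1 of 6. That last gene, Hdc, histidine decarboxylase, was 11.3-fold higher with LPS than in control and had a ratio of -1.43 in LPS/zVAD over LPS.

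Medians of the arrays ran from log2 6.41 with LPS to 6.52 in control. The deposited scaling and rescaling by medians, by quantiles or by cyclic loess gave ratios of the 4 genes that lay within 0.21 of one another on the log2 scale in each of the 6 comparisons.

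**Figure D5:**
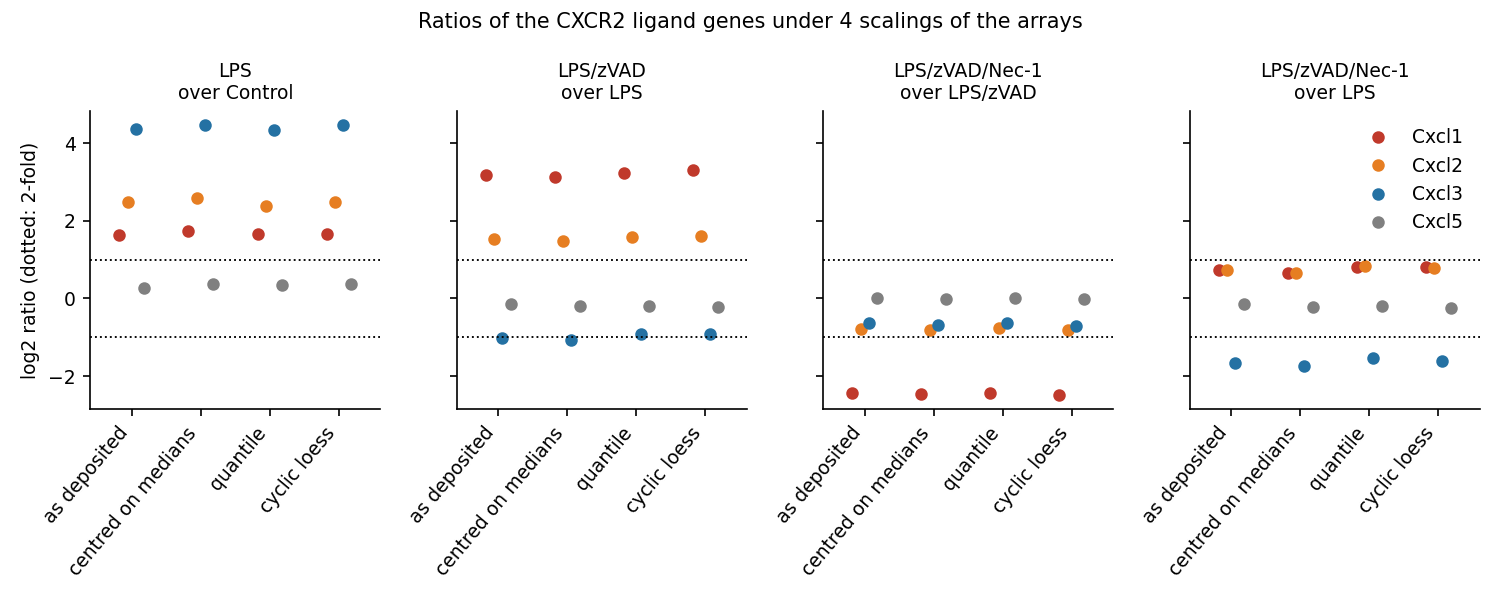
Log2 ratios (vertical axis) of the 4 genes in 4 comparisons under the deposited scaling and 3 others (horizontal axis), with dotted lines at 2-fold. Cxcl3 crosses the lower line for LPS/zVAD over LPS, from -1.02 as deposited to -0.91 after cyclic loess, and no other gene crosses a line in these panels.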

How the data were processed

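RNA of 4 macrophage samples was measured on 1 Affymetrix array each. The authors deposited 1 log2 signal per gene-level probe set and array (the log2 scale was read from the range of values), which they made in Expression Console, a program of Affymetrix, per the submitters' processing notes. Its version, the normalization and the build were not given in the sources used here. Of 35556 probe sets, 21789 had 1 gene symbol in the platform annotation, giving 19938 genes, each taken as its probe set with the highest mean; 12203 passed the filter (highest of 4 signals at or above log2 6.47). Samples were grouped by title.

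Ratios are differences of log2 signals between single arrays in 6 comparisons, called at 2-fold or more, with no test. Ratios against a signal under the filter level are bounds counted from it. Genes named beyond the 4 were members of 13 lists (135 of 140 genes measured), up to 4 neighbours on each side of the cluster, and the 5 nearest patterns, without predicted, RIKEN and clone symbols. The genes and lists were chosen with earlier results of these data known. Promoters were aligned globally with Biopython 1.88 (match 1, mismatch -1, gap opening -3, extension -1). Alternatives were centring, quantile normalization and cyclic loess (limma 3.58.1), raising low signals to the filter level, 1.5-fold and 3-fold thresholds, probe set means, and other filters; distances with raised signals were added after the data were seen. Counting was tested on simulated differences. The number of arrays limits the precision.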

Additional observations from a re-analysis of the deposited data

How the results depend on the processing

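Of 168 ratios of the 4 genes (24 ratios under 7 alternatives), 160 kept their side of the threshold. Of the others, 4 lost a call and 4 gained one, and 0 of the called ratios changed sign. Many could not have changed. With 1 probe set for each gene, probe set means return the same ratios, and other thresholds alter calls only. Raised signals alter only ratios with a signal under the filter level, and Cxcl5 was under it on all arrays. Only the rescalings by medians, by quantiles and by cyclic loess recomputed every ratio, so the 160 is not a measure of stability. Cxcl3 in LPS/zVAD over LPS lost its call at -0.91 after quantile normalization and at -0.91 after cyclic loess, which left 0 genes lower in that comparison; the cause was not tested. Fewer genes pass a higher threshold by construction: at 3-fold, Cxcl2 (1.53) and Cxcl3 (-1.02) lost their calls there, leaving 1 gene higher and 0 lower. At 1.5-fold, Cxcl2 (-0.80) and Cxcl3 (-0.64) gained calls in LPS/zVAD/Nec-1 over LPS/zVAD, making 3 lower, and Cxcl1 (0.74) and Cxcl2 (0.73) in LPS/zVAD/Nec-1 over LPS, making 2 higher. Over all genes, 396 were higher and 438 lower in LPS/zVAD over LPS, 971 and 1607 at 1.5-fold, and 144 and 77 at 3-fold. The share of called genes that were higher was 47.5% there, 57.8% after quantile normalization and 59.7% after cyclic loess; in LPS/zVAD over control it was 45.1%, and 58.7% after cyclic loess. Of the 5 nearest patterns named for each gene, 5 for Cxcl1, 4 for Cxcl2 and 2 for Cxcl3 were also nearest with signals raised to the filter level, a setting chosen after seeing the data. No paired analysis was possible because each condition had 1 array.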
